A study of Mus musculus with 12 samples.

Results

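Whole hearts of 2-month-old cardioGRMRdKO mice were compared with hearts of dflox littermates of the same age, 3 hearts against 3. These are 6 of the 12 hearts of the series, chosen by genotype and age alone, and all genes on the array were examined. All mice were male and of C57BL/6 background, and all carried floxed alleles of both Nr3c1, the gene of the glucocorticoid receptor (GR), and Nr3c2, the gene of the mineralocorticoid receptor (MR). The cardioGRMRdKO mice also carried αMHC-Cre, a recombinase made from a cardiomyocyte promoter. The dflox controls had no Cre. Hearts with Cre and intact receptor genes were not among these groups, so loss of the receptors and presence of Cre cannot be told apart. The same genotypes at 1 month of age, again 3 hearts against 3, entered the statistical model and serve here for comparison of effect sizes. The cardioGRMRdKO hearts are called knockout hearts below.

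GR and MR are ligand-activated transcription factors of the steroid receptor family. Both bind glucocorticoids, and MR also binds aldosterone. After binding hormone they move to the nucleus, where they act at DNA elements built from inverted half-sites, and GR also acts through other transcription factors. In cardiomyocytes GR is known for effects on contraction and on survival, while MR is known for its part in hypertrophy and fibrosis. The adult mouse ventricle makes mainly the α-myosin heavy chain, stores calcium on calsequestrin 2 and burns mainly fatty acids. Under load it re-expresses genes of the fetal heart, among them the β-myosin heavy chain and skeletal α-actin.

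RNA was read on 1-colour Agilent whole mouse genome arrays, 1 per heart. Levels are log2 intensities relative to the 75th percentile of all transcript spots of the same array, so 0 marks that percentile. Levels of different probes are not comparable, because probes differ in brightness. Of 43379 transcript spots the 6 arrays had 67.0% to 71.9% well above background, and levels correlated between any pair of arrays at r = 0.959 to 0.987 across genes. The arrays lay on 3 slides: slide 1 held dflox replicate 1 and knockout replicate 3, slide 2 held knockout replicate 1, and slide 3 the other hearts. Cardiomyocyte genes were bright in all 6 hearts, with Myh6 between 8.16 and 8.80 and Nppa between 8.10 and 8.57. Transcripts of airway and lung were also present, to a degree that varied between hearts of both genotypes. The mean level of their 21 markers was 0.60, −3.45 and 0.49 over knockout replicates 1 to 3, against −2.09, −3.33 and 1.07 over dflox replicates 1 to 3. In bulk RNA, fewer cells of a type and less RNA per cell cannot be told apart.

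The deleted genes came first as a check of the labels. The brightest probe of Nr3c1 (chromosome 18, 39787242 to 39787301, build mm7 of the file headers) read 1.44, 1.15 and 1.18 in the knockout hearts, against 2.51, 2.18 and 2.39 in their controls. The groups did not overlap, and Nr3c1 was 2.15-fold lower in knockout hearts (log2 difference −1.10, SE 0.137, n = 3 and 3, adjusted p = 0.00566 with limma). Its call did not hold with the mean of the 4 Nr3c1 probes, with normexp background correction or without the arrays of slide 3, and over all settings the difference lay between −1.20 and −0.74. Nr3c2 was measured on 1 dim probe (chromosome 8, 75452671 to 75452730), at −3.66, −3.03 and −4.48 against −4.49, −2.69 and −2.64, and the groups overlapped (−0.46, SE 0.499, adjusted p = 0.651). The labels do not say which exons are deleted, a probe outside them does not report on the deletion, and a whole heart contains many cells that αMHC-Cre spares. Of the other receptor partners and modifiers, none of which was called, the chaperone genes Fkbp4 and Hsp90ab1 stood at −0.13 and 0.34, the hormone-activating enzyme gene Hsd11b1 at 0.38 and the coactivator gene Ncoa1 at −0.37.

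Knockout hearts differed from dflox hearts in many genes, with Casq1, Gdf15 and Myh7 among the largest rises and Kcnv2, Cngb3 and Sds among the largest falls. limma called 422 of 18258 genes, or 2.31%, at a Benjamini-Hochberg adjusted p under 0.05. Of these 201 were higher (1.1% of genes tested) and 221 lower (1.21%). The called rises were 1.99-fold at the median and the called falls 1.86-fold. A change of 2-fold or more was reached by 99 rises and 88 falls (1.02%) and of 4-fold or more by 24 rises and 21 falls (0.246%). In 419 of the called genes the ranges of both genotypes were separate. Separate ranges were also found in 17.3% of all tested genes, namely in 10.8% with the knockout group lower and in 6.47% with it higher. The difference of the median gene was −0.10, so a list with a median near −0.10 moved with the bulk of genes. The share of called members in a list is likewise to be read against 2.31%. The lists were chosen with earlier results of these data known. A share above that of all genes can therefore come from the choice of members.

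Leaving out dflox replicate 2 or 3 lowered the count from 422 to 240 or 249, and leaving out knockout replicate 1 gave 269. With the slide 3 arrays removed it was 110. With normexp background correction it was 247, of which 88 were higher and 159 lower. With the 2-month arrays alone it was 108, with 102 of them among the 422, and all 422 kept their direction. The calls of Cdkn1a, Bcl2, Ccnd2, Mthfd2, Ucp2, Bckdhb, Enpep, Rgs6, Adcy6 and Gpr22 were among those that did not hold in that fit.

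**Figure D1:**
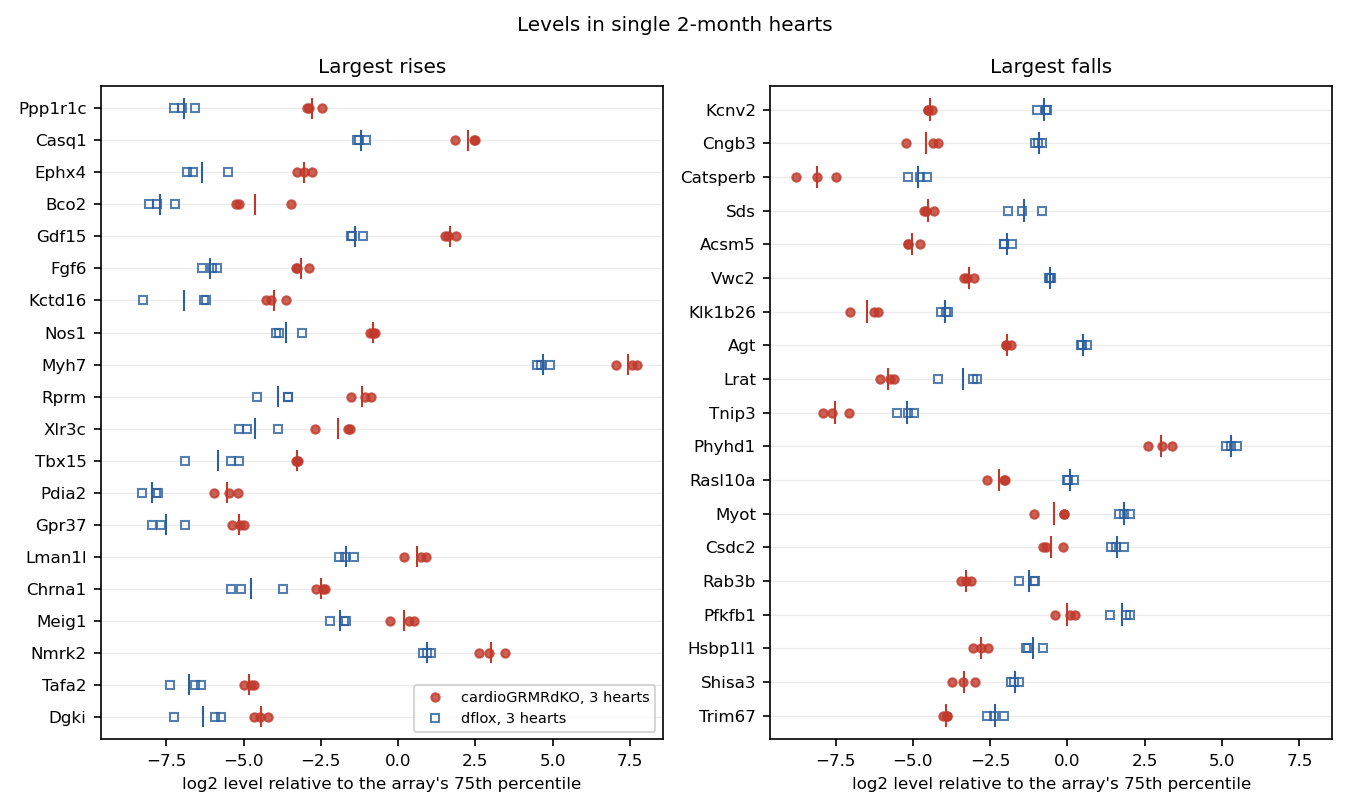
Log2 level relative to the array's 75th percentile (x axis) of the 20 largest called rises (left) and 19 of the largest called falls (right) in each 2-month heart. Filled circles are the 3 knockout hearts, open squares the 3 dflox hearts and vertical bars group means. In each gene shown the groups do not overlap, which was a condition for being shown.

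The promoters of 3 strongly changed genes that hold the half-site letters AGAACA, and of 3 that do not, are shown because GR and MR bind elements built from this half-site. Each run gives the 250 bases before the start of the gene (RefSeq, build GRCm38.p6, strand of the gene), with the half-site of either orientation in capitals. Where a gene has several listed promoters, as Meig1 with 3 and Gdf15 with 2, only the first listed was searched. This holds for the shares below too. Lman1l (chr9:57620775-57621024, minus strand) and Meig1 (chr2:3422649-3422898, minus strand) rose in knockout hearts. Lrat (chr3:82903975-82904224, minus strand) fell. Casq1 (chr1:172219896-172220145, minus strand) and Gdf15 (chr8:70632457-70632706, minus strand) rose, Agt (chr8:124569707-124569956, minus strand) fell, and none of the 3 holds the letters.
Lman1l: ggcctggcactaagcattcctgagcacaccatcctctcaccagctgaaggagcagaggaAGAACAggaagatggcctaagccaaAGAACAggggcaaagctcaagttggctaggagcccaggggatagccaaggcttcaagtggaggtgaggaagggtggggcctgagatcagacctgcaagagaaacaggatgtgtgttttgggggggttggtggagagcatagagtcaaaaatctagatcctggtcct
Meig1: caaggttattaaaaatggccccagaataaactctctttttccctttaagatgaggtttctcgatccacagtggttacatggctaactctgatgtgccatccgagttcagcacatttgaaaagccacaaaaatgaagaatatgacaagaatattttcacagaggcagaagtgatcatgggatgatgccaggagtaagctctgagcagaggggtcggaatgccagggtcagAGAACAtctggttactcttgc
Lrat: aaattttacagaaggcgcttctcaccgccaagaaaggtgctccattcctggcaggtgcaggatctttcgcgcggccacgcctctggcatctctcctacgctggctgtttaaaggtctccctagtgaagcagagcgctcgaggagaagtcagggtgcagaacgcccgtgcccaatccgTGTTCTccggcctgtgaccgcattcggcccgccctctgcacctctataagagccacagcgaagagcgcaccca
Casq1: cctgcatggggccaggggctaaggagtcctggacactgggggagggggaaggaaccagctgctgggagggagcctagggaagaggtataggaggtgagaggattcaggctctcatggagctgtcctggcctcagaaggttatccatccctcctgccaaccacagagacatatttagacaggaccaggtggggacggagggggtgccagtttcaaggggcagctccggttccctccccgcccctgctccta
Gdf15: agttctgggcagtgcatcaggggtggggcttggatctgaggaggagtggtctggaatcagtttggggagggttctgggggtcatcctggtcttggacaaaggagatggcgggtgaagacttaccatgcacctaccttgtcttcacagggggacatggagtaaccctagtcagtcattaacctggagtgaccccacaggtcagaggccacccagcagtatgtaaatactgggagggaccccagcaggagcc
Agt: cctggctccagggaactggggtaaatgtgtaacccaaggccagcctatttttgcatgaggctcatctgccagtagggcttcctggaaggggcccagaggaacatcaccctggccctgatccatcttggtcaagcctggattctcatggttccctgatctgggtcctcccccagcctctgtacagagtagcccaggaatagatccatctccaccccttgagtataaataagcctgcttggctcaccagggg
In Lman1l the matches begin 191 and 166 bases before the start, in Meig1 21 bases before it, and in Lrat 73 bases before it, where the letters lie on the opposite strand and read TGTTCT. The letters occur on either strand in 17 of 151 promoters of called higher genes (11.3%), 14 of 137 of called lower genes (10.2%) and 1380 of 12008 of all tested genes with a promoter in the table (11.5%). The shares of the called genes were thus close to, and slightly below, the share of all tested genes. The inverted repeat of the half-site, AGAACA and TGTTCT spaced by 3 bases, was in 0 promoters of this length, among called and all tested genes alike. Only exact matches were searched, so this count does not show that receptor elements were absent. A match of letters does not show that a factor binds there, and elements farther away were outside these windows.

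Ppp1r1c, among the largest rises, encodes a small inhibitor of protein phosphatase 1, the phosphatase that opposes protein kinase A (chromosome 2, 79652624 to 79652683). It read −2.96, −2.88 and −2.47 in knockout hearts against −7.24, −7.00 and −6.56 in dflox hearts, where no array was well above background. A gene that was not well above background on any array of the dimmer group has only a bound there, given as "at least" against the lowest level that was well above background on those arrays. By this bound Ppp1r1c was at least 8.79-fold higher on the main scale (adjusted p = 1.34e-04), but with normexp background correction the difference was 0.91 on the log2 scale (0.0346), below that bound. Casq1, the calsequestrin of skeletal muscle (chromosome 1, 172180644 to 172182147), read 2.44, 1.82 and 2.47 against −1.25, −1.03 and −1.33, a rise of 10.9-fold (3.45, SE 0.206, adjusted p = 8.97e-05). Gdf15, a secreted cytokine induced by cell stress (chromosome 8, 69084712 to 69084771), read 1.52, 1.88 and 1.60 against −1.52, −1.13 and −1.50, a rise of 8.29-fold (3.05, SE 0.194, adjusted p = 8.97e-05). In these genes the distance between the groups was several times the spread within each. Nos1, the neuronal nitric oxide synthase (chromosome 5, 117187735 to 117187794), read −0.76, −0.90 and −0.80 against −3.94, −3.86 and −3.11, with dflox replicate 3 the highest of its group (2.82, SE 0.234, adjusted p = 3.63e-04). Rprm, a cell cycle arrest gene induced by p53 (chromosome 2, 54084945 to 54085004), read −0.89, −1.06 and −1.54 against −4.58, −3.55 and −3.55 (2.73, SE 0.300, adjusted p = 0.00136). Nmrk2, the muscle kinase that feeds nicotinamide riboside into NAD synthesis (chromosome 10, 80991285 to 80991344), read 3.47, 2.62 and 2.95 against 1.07, 0.80 and 0.93, a rise of 4.23-fold (adjusted p = 9.63e-04). Ppp1r1c, Casq1, Gdf15, Nos1, Rprm and Nmrk2 were called in every setting in which they were tested, with Nos1 and Rprm smaller with normexp, at 1.86 and 1.56.

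Other large rises rested on dimmer probes. Ephx4, an epoxide hydrolase gene, rose at least 6.37-fold (adjusted p = 0.00265), Kctd16, an auxiliary subunit of GABA-B receptors, at least 3.74-fold (0.0106) and Bco2, a mitochondrial enzyme that cleaves carotenoids, at least 2.44-fold (0.0258). The bound of Kctd16 holds for its brightest probe only. Its second probe stood at 0.69 with groups that overlapped, and the mean of its probes, at 1.80, kept the call. Fgf6, a growth factor gene of muscle precursors, read −3.31, −3.29 and −2.87 against −5.87, −6.33 and −6.02 and exceeded background clearly on 1 of 3 dflox arrays (2.92, adjusted p = 4.62e-04). Tbx15, a T-box transcription factor of muscle and skeleton, rose by 2.56 (0.0227), also with 1 of 3 dflox arrays above background. Lman1l and Meig1 were brighter and rose 4.91-fold and 4.25-fold (adjusted p = 8.45e-04 and 0.00177). Lman1l, a lectin-type cargo receptor gene, read 0.88, 0.75 and 0.19 against −1.91, −1.43 and −1.73, and Meig1, known from sperm formation, 0.34, 0.53 and −0.27 against −2.19, −1.77 and −1.70. Xlr3c, an X-linked gene with close copies nearby, read −2.70, −1.56 and −1.62 against −3.87, −4.89 and −5.15 (2.68, adjusted p = 0.0215), and which copy the probe reads was not tested. The remaining 6 of the 20 were Pdia2 (at least 1.30-fold), Gpr37 (at least 1.69-fold), Tafa2 (at least 2.14-fold), Dgki (at least 2.63-fold), and Chrna1 and Myh7, which are described with the contractile genes. With normexp background correction the calls of Ephx4, Kctd16, Bco2, Fgf6, Tbx15, Tafa2 and Dgki did not hold (0.07 to 0.78 on the log2 scale, below the bounds where one is given), Xlr3c stood at 1.06, and Pdia2 and Gpr37 turned sign, to −0.053 and −0.11. Gpr37, Tafa2 and Dgki lost their calls in 8, 10 and 8 of the 12 fits without 1 heart, with adjusted p up to 0.137, 0.135 and 0.115, and Bco2, Tbx15 and Xlr3c in 3, 4 and 4, up to 0.0999, 0.075 and 0.0886.

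Kcnv2, among the largest falls, encodes a modifying subunit of voltage-gated potassium channels (chromosome 19, 27036941 to 27037000). It read −4.51, −4.50 and −4.37 in knockout hearts against −0.97, −0.69 and −0.65 in dflox hearts, a fall of 12.9-fold (−3.69, SE 0.229, adjusted p = 8.97e-05). Cngb3, a subunit of the cyclic nucleotide-gated channel of cones (chromosome 4, 19436051 to 19436110), read −4.35, −5.23 and −4.18 against −0.94, −0.82 and −1.03, a fall of 12.6-fold (−3.65, SE 0.242, adjusted p = 9.35e-05). Knockout replicate 2 was the lowest for Cngb3, while the 3 dflox hearts lay within a narrow band in both genes. Sds, the serine dehydratase gene (chromosome 5, 119717082 to 119717141), read −4.32, −4.63 and −4.57 against −1.46, −1.92 and −0.83 (−3.11, SE 0.256, adjusted p = 3.63e-04). Agt, the gene of angiotensinogen (chromosome 8, 123143932 to 123143991), read −1.99, −2.00 and −1.84 against 0.45, 0.46 and 0.63 (−2.45, SE 0.205, adjusted p = 3.63e-04). Csdc2, an RNA-binding cold shock domain gene, read −0.78, −0.70 and −0.13 against 1.57, 1.40 and 1.83, a fall of 4.40-fold (−2.14, adjusted p = 3.87e-04). Kcnv2, Cngb3, Sds, Agt and Csdc2 were called in every setting in which they were tested, as were Rab3b, a GTPase of vesicle release (−2.05, adjusted p = 4.62e-04), and Shisa3 (−1.65, 0.00146). With normexp Kcnv2, Cngb3 and Sds were smaller, at −2.36, −2.30 and −1.74.

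Phyhd1, an oxygenase gene, was among the brighter genes that fell, at 3.38, 3.05 and 2.61 against 5.12, 5.29 and 5.49 (4.87-fold, adjusted p = 6.75e-04). Acsm5, a mitochondrial medium-chain acyl-CoA synthetase, read −5.15, −5.17 and −4.77 against −1.79, −2.04 and −2.06 (8.37-fold, 0.00264). Vwc2, a secreted inhibitor of BMP signals, read −3.01, −3.35 and −3.24 against −0.55, −0.60 and −0.57 (6.19-fold, 0.00479). Each of these 3 lay well apart between the groups, and each lost its call only in the setting that removes the slide 3 arrays and keeps 1 dflox heart. Rasl10a, a small GTPase gene, fell by 2.28 (adjusted p = 0.00162), Hsbp1l1 by 1.67 (0.0022) and Trim67, a ubiquitin ligase gene of neurons, by 1.60 (0.00878), although the second Trim67 probe did not follow it to the same degree, at −0.67. Lrat, which stores retinol as ester, read −5.75, −5.59 and −6.06 against −3.05, −4.18 and −2.93, with 1 of 3 knockout arrays above background (−2.41, adjusted p = 0.0153). Klk1b26, one of a family of near-identical kallikrein genes, Catsperb, of the sperm calcium channel, and Tnip3, an inhibitor of NF-κB signalling, were below background in all knockout hearts and fell by bounds of at least 3.90-fold (adjusted p = 0.0159), at least 2.35-fold (0.00926) and at least 1.81-fold (0.00503). With normexp the calls of Lrat, Klk1b26, Catsperb and Tnip3 did not hold, at −1.07, −0.68, −0.81 and −0.72 on the log2 scale, smaller than the bounds given for the last 3, and Acsm5 stood at −1.71. Lrat and Klk1b26 each lost the call in 3 of the 12 fits without 1 heart, with adjusted p up to 0.065 and 0.0609.

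Genes of the fetal and overloaded heart moved in both directions, and the classic peptide markers were not called. Of 33 genes of this list 9 rose and 2 fell, and the median was 0.01. In 42.4% the groups did not overlap, against 17.3% of all genes, a share that the choice of the list can favour. Myh7, the slow β-myosin heavy chain (chromosome 14, 49837275 to 49837334), read 7.73, 7.55 and 7.05 in knockout hearts against 4.63, 4.92 and 4.49 in dflox hearts, a rise of 6.79-fold (2.76, SE 0.178, adjusted p = 8.97e-05). Its second probe gave 2.75. Myh6, the adult α-myosin heavy chain, read 8.80, 8.22 and 8.16 against 8.68, 8.32 and 8.53, and the groups overlapped (−0.11, SE 0.218, adjusted p = 0.797). The second Myh6 probe stood lower, at −0.37, and the groups overlapped there too. Acta1, skeletal α-actin, read 6.64, 6.66 and 7.02 against 5.01, 4.96 and 4.87 (1.83, SE 0.329, adjusted p = 0.0178), and Mybpc2, fast myosin-binding protein C, 4.25, 4.29 and 3.86 against 2.44, 2.50 and 2.44 (1.67, SE 0.147, adjusted p = 4.00e-04). The groups thus overlapped on both probes of the adult myosin, while the fetal one rose. Cck, the cholecystokinin gene, rose by 1.61 (0.00417), Uchl1, a ubiquitin hydrolase gene, by 0.93 (0.0154), and the second Cck probe, above background in 2 hearts of each group, stood at −0.61. The call of Cck did not hold with the mean of its probes (0.50, adjusted p = 0.442) or with normexp (0.59, 0.174). Rcan1, a calcineurin target, and Ckb, brain creatine kinase, which the naming rule did not cover, rose by 0.81 and 0.60 (adjusted p = 0.0197 and 0.0233). Tnni1, the slow troponin I of the fetal heart, read −3.28, −3.01 and −3.30 against −2.27, −2.23 and −2.26 and fell (−0.94, adjusted p = 0.016), and Myocd, the coactivator of serum response factor, fell by 0.73 (0.0182). Nppa, the A-type natriuretic peptide gene, read 8.57, 8.46 and 8.10 against 8.45, 8.35 and 8.34, and Nppb, the B-type gene, 5.60, 6.08 and 5.35 against 4.62, 5.67 and 4.64. Both overlapped between the groups, and neither passed (−0.01 and 0.70, adjusted p = 0.987 and 0.273). Acta1 and Tnni1 lost their calls without dflox replicate 2 or 3 or knockout replicate 1 or 3, with adjusted p up to 0.0703 and 0.0639, and Uchl1 and Myocd each in 2 of the 12 fits without 1 heart (up to 0.0678 and 0.0798).

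**Figure D2:**
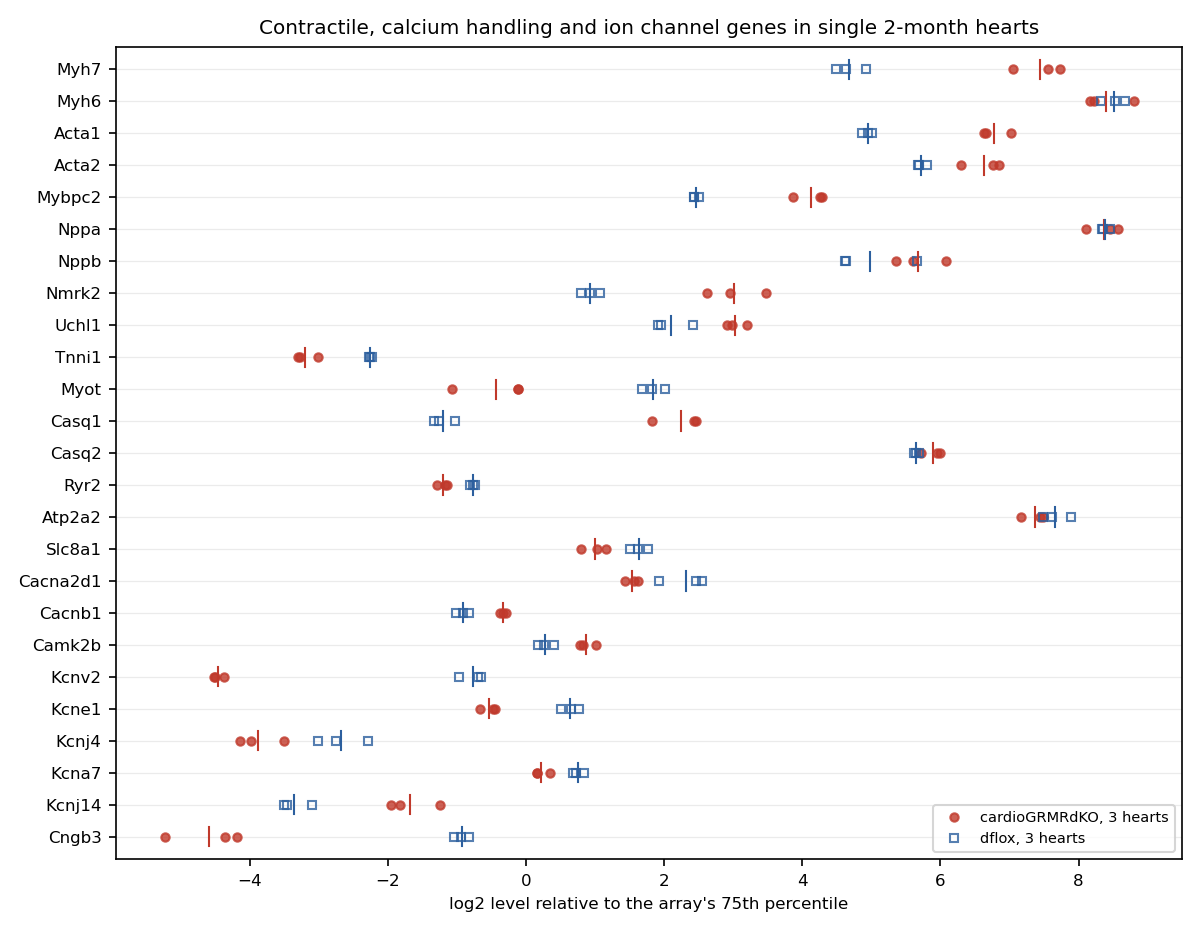
Log2 level relative to the array's 75th percentile (x axis) of contractile, calcium handling and ion channel genes in each 2-month heart. Filled circles are the 3 knockout hearts, open squares the 3 dflox hearts and vertical bars group means. Myh7 and Casq1 lie apart between the groups, whereas Myh6, Nppa and Atp2a2 overlap.

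The adult sarcomere and Z-disc list hardly moved apart from 1 member. Of its 34 genes Myot alone was called, and the median was −0.12, near the −0.10 of all genes. Myot, myotilin, a Z-disc protein that cross-links actin, read −0.12, −0.12 and −1.07 against 1.68, 2.01 and 1.83, with knockout replicate 3 lowest (4.85-fold lower, −2.28, SE 0.248, adjusted p = 0.00134). Of 32 genes counted as skeletal muscle genes 6 rose, namely Casq1, Nos1, Mybpc2, Fgf6, Chrna1 and Acta1, and no other member was called. The choice of the list can favour this count. The list's median was −0.24, with 20 of 32 members below 0, or 62.5% against 63.0% of all genes, but without the arrays of slide 3 it was 0.05. The light chain gene Mylpf stood at 0.97, with groups that did not overlap (adjusted p = 0.107), the master regulator Myod1 at −0.21, fast myosin Myh4 at −0.32, fast troponin genes Tnnt3 and Tnni2 at 0.14 and −0.47, and α-actinin 3, Actn3, at −0.32, none of them called. Chrna1, the α subunit of the muscle acetylcholine receptor, read −2.66, −2.42 and −2.35 against −5.42, −5.10 and −3.74 (2.27, SE 0.401, adjusted p = 0.0159), and the receptor's Chrnb1, Chrnd and Chrng stood at −0.29, −0.38 and −0.37. With normexp Chrna1 stood at 0.98. Chrna1 lost its call without dflox replicate 2 or knockout replicate 2 or 3 (adjusted p up to 0.0705).

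Of 42 calcium handling genes 3 rose and 2 fell, with a median of −0.08. Beside Casq1, which rose, the cardiac Casq2 read 5.96, 5.72 and 5.99 against 5.64, 5.69 and 5.61, groups that did not overlap but whose difference did not pass (0.24, SE 0.0991, adjusted p = 0.275). Camk2b, a subunit of calcium/calmodulin kinase II, read 1.01, 0.82 and 0.79 against 0.18, 0.41 and 0.26 (0.59, adjusted p = 0.016), and Cacnb1, a β subunit of calcium channels, rose by 0.58 (0.0453). Cacna2d1, the α2δ subunit of the L-type channel, read 1.57, 1.62 and 1.43 against 2.55, 2.47 and 1.92 (−0.77, adjusted p = 0.0292). Slc8a1, the sodium-calcium exchanger, read 0.80, 1.16 and 1.02 against 1.50, 1.77 and 1.63 (−0.64, adjusted p = 0.0371), whereas 2 of its 4 probes stood at 0.00 and −0.16. The release channel gene Ryr2 read −1.17, −1.15 and −1.28 against −0.73, −0.80 and −0.77 and narrowly missed the threshold (−0.43, SE 0.101, adjusted p = 0.061). The pump gene Atp2a2 overlapped between the groups (−0.29, adjusted p = 0.31), and its regulator gene Pln stood at 0.04. The calls of Cacnb1, Slc8a1, Cacna2d1 and Camk2b were lost in 10, 8, 8 and 3 of the 12 fits without 1 heart, with adjusted p up to 0.131, 0.141, 0.118 and 0.0615.

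Of 36 potassium channel genes 1 rose and 4 fell, and the median was −0.24. In 41.7% the groups did not overlap, against 17.3% of all genes. In 13 of the 36 genes all knockout hearts lay below all dflox hearts, against 10.8% of all genes. Kcnv2 fell most. Kcne1, the β subunit of the slow delayed rectifier, read −0.66, −0.45 and −0.47 against 0.51, 0.77 and 0.66 (2.25-fold lower, −1.17, SE 0.207, adjusted p = 0.016). Kcnj4, an inward rectifier, read −3.98, −3.50 and −4.14 against −3.01, −2.29 and −2.75 (−1.19, adjusted p = 0.0339), and Kcna7 fell by 0.53 (0.0295). The inward rectifiers Kcnj2, Kcnj12 and Kcnj3, none of them called, stood at −0.68, −0.56 and −0.75, also with no overlap between the groups. Kcnj14, another inward rectifier, rose from −3.46, −3.10 and −3.50 to −1.24, −1.83 and −1.95 (1.68, SE 0.320, adjusted p = 0.0233). Among 30 sodium, chloride, pacemaker and gap junction genes 1 rose and 1 fell, with a median of −0.19. The member that fell was Cngb3. The connexin 43 gene Gja1 overlapped between the groups (0.02, adjusted p = 0.961). Kcne1 lost its call without dflox replicate 2 or 3 or knockout replicate 1, with adjusted p up to 0.0701, the calls of Kcna7 and Kcnj4 did not hold with normexp, where Kcnj14 stood at 0.96, and Kcna7, Kcnj4 and Kcnj14 lost theirs in 8, 7 and 5 of the 12 fits without 1 heart, with adjusted p up to 0.11, 0.121 and 0.0892.

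**Figure D3:**
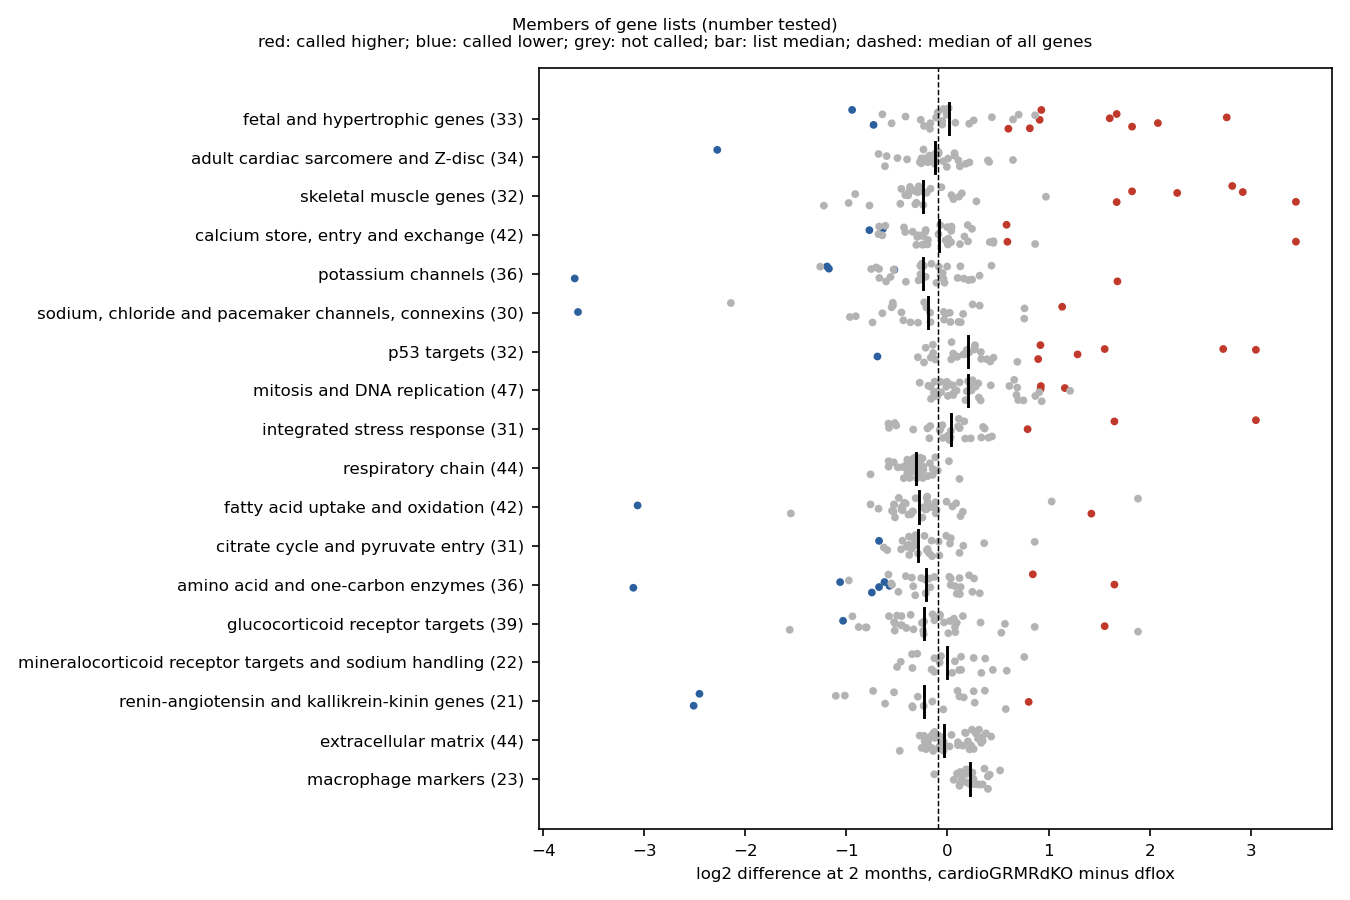
Log2 difference between knockout and dflox hearts at 2 months (x axis) for each tested member of 18 gene lists, with the number of tested members in parentheses. Each dot is 1 gene, red where called higher, blue where called lower and grey where not called; black bars are list medians, and the dashed line is the median of all genes at −0.10. Respiratory chain genes lie close together left of the line, whereas the skeletal muscle list has a few members far to the right of its median.

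Of 32 targets of p53, the stress-activated transcription factor, 6 rose and 1 fell, and the median was 0.20. In 40.6% the groups did not overlap, against 17.3% of all genes, a share that the choice of the list can favour. Averaged over the list, knockout hearts stood at 0.59, 0.70 and 0.55 against 0.17, 0.21 and 0.18, so the groups did not overlap. Cdkn1a, the cell cycle inhibitor p21, read 0.46, 0.98 and 1.29 against −0.69, −0.50 and −0.76 (2.94-fold higher, 1.56, SE 0.198, adjusted p = 0.00282). Its call did not hold with the 2-month arrays alone. Eda2r, a death-domain receptor gene of the TNF family, read −2.17, −1.88 and −2.11 against −3.09, −3.43 and −3.51 (1.29, SE 0.156, adjusted p = 0.0022), although its second probe stood at −0.57, and the call held neither with the mean of the probes (0.36, adjusted p = 0.49) nor with normexp (0.57, 0.0846). Phlda3, an inhibitor of Akt, read 4.38, 4.25 and 4.45 against 3.29, 3.24 and 3.86 (0.90, adjusted p = 0.0153), and Ddit4l, an inhibitor of mTOR, rose by 0.92 (0.0418). Gdf15 and Rprm completed the rises, and Dglucy, a mitochondrial cyclase gene, fell by 0.69 (0.0184). Widely used p53 targets were not called, Mdm2 at 0.21, Bax at 0.06, Bbc3 at 0.16 and Ccng1 at −0.29. With normexp the list median was 0.07, still above the −0.13 of all genes in that setting. Phlda3 lost its call without dflox replicate 2 or knockout replicate 1 or 3 (adjusted p up to 0.0635), and Ddit4l and Dglucy in 9 and 2 of the 12 fits without 1 heart (up to 0.145 and 0.0776).

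Of 47 genes of mitosis and DNA replication 3 rose and 0 fell, and the median was 0.21. In 17 (36.2%) the knockout hearts were above all dflox hearts, and in 0 the reverse held. Over all genes these shares were 6.47% and 10.8%. With normexp the list median was smaller, at 0.05, against −0.13 for all genes in that setting. Averaged over the list, knockout hearts stood at −1.40, −1.36 and −1.41 against −1.70, −1.58 and −1.76. Ccnd2, cyclin D2, read 4.77, 4.77 and 4.69 against 3.94, 3.87 and 3.65 (0.92, SE 0.108, adjusted p = 0.0019), and its other probes gave 0.75 and 0.82. Mcm2, of the replicative helicase, read −0.03, −0.27 and −0.13 against −1.12, −1.04 and −1.03 (0.92, SE 0.145, adjusted p = 0.00913). Ube2c, which loads ubiquitin on mitotic cyclins, rose by 1.16 (0.0486), a call absent from 9 of the 12 fits without 1 heart (adjusted p up to 0.157). The proliferation markers Mki67, Top2a and Ccnb1 stood at 0.24, 0.69 and −0.19, none of them called. Among 35 cell death genes 1 rose. It was Bcl2, which protects mitochondria from permeabilisation, at 1.45, 1.47 and 0.94 against −0.40, 0.07 and 0.08 (1.37, SE 0.169, adjusted p = 0.00252), with further probes at 1.16 and 0.05.

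Of 31 genes of the integrated stress response 3 rose, and the median was 0.03. Mthfd2, of the mitochondrial folate cycle, read −2.62, −1.94 and −1.32 against −3.55, −3.59 and −3.69, with knockout replicate 3 highest (1.65, SE 0.259, adjusted p = 0.00878; 0.87 with normexp). Aldh1l2, also of mitochondrial folate metabolism, rose by 0.79 (0.0317) but lost the call in 8 of the 12 fits without 1 heart (adjusted p up to 0.124), and the third was Gdf15. The regulators Atf4 and Ddit3 and the targets Asns and Trib3 stood at 0.11, 0.03, 0.23 and 0.03. Of 30 heat shock and unfolded protein genes Hsph1 alone rose, by 0.49 (0.0465), a call lost in 10 of the 12 fits without 1 heart (up to 0.143).

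In 3 lists of mitochondrial energy supply, values lay mostly below 0 but few genes were called. In the respiratory chain 42 of 44 genes were below 0, against 63.0% of all genes, with a median of −0.31. In 18 genes (40.9%, against 10.8% of all genes) all knockout hearts lay below all dflox hearts. None of the 44 was called (1 was with quantile normalization). The average of the list was 7.03, 6.92 and 6.52 per knockout heart against 7.08, 7.20 and 7.16 per dflox heart. Knockout replicate 3 was lowest, and replicate 1 was close to the dflox range. The complex III gene Uqcrb stood at −0.76 (adjusted p = 0.0957) and the complex I gene Ndufv2 at −0.41 (0.131). In fatty acid uptake and oxidation 35 of 42 genes were below 0, the median was −0.28, and the mean level of 3.86, 3.79 and 3.79 lay below the 4.10, 4.10 and 4.11 of the dflox hearts. Acsm5 fell, and Ucp2, an uncoupling protein homologue, rose from 0.47, 0.11 and 0.17 to 1.39, 1.37 and 2.25 (1.42, SE 0.232, adjusted p = 0.0108). The regulators Ppara and Ppargc1a stood at −0.55 and −0.76 (adjusted p = 0.0945 and 0.223), the β-oxidation enzymes Hadh, Eci1 and Acaa2 at −0.48, −0.68 and −0.53 (0.0516, 0.0561 and 0.0641), and the transporter gene Cd36 at −0.20. In citrate cycle and pyruvate entry 25 of 31 genes were below 0, with a median of −0.29. Got1, cytosolic aspartate aminotransferase, was the member called, at 5.94, 5.96 and 5.70 against 6.47, 6.62 and 6.54 (−0.68, SE 0.110, adjusted p = 0.0108). With quantile normalization the medians of these 3 lists were −0.11, −0.10 and −0.14, against −0.02 for all genes, and the call of Got1 did not hold.

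Of 36 genes of amino acid and one-carbon metabolism 2 rose and 6 fell, and the median was −0.21. In 41.7% the groups did not overlap, against 17.3% of all genes. Beside Sds and Got1, Prodh, which starts proline breakdown, read 1.10, 1.13 and 1.39 against 2.35, 2.30 and 2.15 (−1.06, SE 0.135, adjusted p = 0.00282). Bckdhb, of the branched-chain ketoacid dehydrogenase, read 2.53, 2.36 and 2.51 against 3.13, 2.98 and 3.01 (−0.57, SE 0.0898, adjusted p = 0.00875). Aldh6a1, of valine breakdown, fell by 0.75 (0.0221) and Gpt, cytosolic alanine aminotransferase, by 0.62 (0.0215). All 6 that fell act in the breakdown or transamination of amino acids, a function that the choice of the list favours. The functions of members not called were not compared. The rises were Mthfd2 and Asl, argininosuccinate lyase, at 0.84 (0.0194). In glucose uptake, glycolysis and glycogen 1 of 39 genes was called, and the median was −0.09. Pfkfb1, a regulator of phosphofructokinase, read 0.25, −0.40 and 0.08 against 1.90, 1.38 and 2.02 (3.45-fold lower, −1.79, SE 0.230, adjusted p = 0.00298) and kept its call in every setting. Aldh6a1, Asl and Gpt lost their calls in 3, 3 and 4 of the 12 fits without 1 heart, with adjusted p up to 0.0782, 0.0789 and 0.0793, and Got1 in 1 of them, without dflox replicate 2 (0.0506).

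In the renin-angiotensin and kallikrein-kinin list 1 of 21 rose and 2 fell. Agt and Klk1b26 fell, while Enpep, the aminopeptidase that converts angiotensin II to III, read 0.76, 0.97 and 0.94 against 0.22, 0.06 and −0.02 (0.80, SE 0.124, adjusted p = 0.00794). The enzyme gene Ace and the receptor gene Agtr1a stood at 0.16 and −0.24, neither of them called. Of 23 genes of natriuretic peptide, nitric oxide and cyclic GMP signalling Nos1 was the member called, and the endothelial Nos3 stood at −0.18. Among 35 adrenergic and cyclic AMP genes Rgs6, a brake on inhibitory G proteins, read 0.90, 0.66 and 1.02 against −0.05, −0.11 and −0.14 (0.96, SE 0.111, adjusted p = 0.00175). Adcy6, a main adenylyl cyclase of the heart, read 2.63, 2.54 and 2.49 against 3.20, 2.99 and 3.09 (−0.54, SE 0.0912, adjusted p = 0.0132), and the phosphodiesterase gene Pde7a fell by 0.80 (0.0156). The β1 receptor gene Adrb1 stood at −0.10. The small inhibitors of protein phosphatase 1 moved in opposite ways, with Ppp1r1c higher, Ppp1r1b, known as DARPP-32, lower by 1.01 (adjusted p = 0.0307) and Ppp1r1a at 0.16, while the catalytic genes Ppp1ca and Ppp1cb stood at −0.01 and 0.00. In the retinoid list Bco2 rose and Lrat fell. Among 39 growth factor and receptor genes Gdf15 and Fgf6 rose, and of 35 TGF-β and BMP genes Vwc2 alone fell. Pde7a and Ppp1r1b lost their calls in 2 and 4 of the 12 fits without 1 heart, with adjusted p up to 0.069 and 0.111.

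Textbook steroid receptor targets were mostly not called, like most genes tested. Of 39 glucocorticoid receptor targets 1 rose, Cdkn1a, and 1 fell, Mt1, a share of 5.13% against 2.31% of all genes. The median was −0.23, against −0.10 for all genes. In 20.5% of these targets the groups did not overlap, against 17.3% of all genes. Mt1, a metallothionein, read 3.92, 3.40 and 3.79 against 4.96, 4.35 and 4.90 (−1.03, SE 0.227, adjusted p = 0.0465) and was not called in 10 of the 12 fits without 1 heart (up to 0.158). Fkbp5, the chaperone often used as a readout of GR, read −2.90, −3.34 and −3.37 against −2.20, −3.12 and −2.73, and Per1, a clock gene, 0.92, −0.93 and −0.76 against 0.06, 0.29 and 1.52. Both overlapped between the groups (−0.52 and −0.88, adjusted p = 0.367 and 0.408). Tsc22d3, the leucine zipper gene GILZ, overlapped as well, at 3.02, 2.56 and 2.24 against 2.53, 2.65 and 3.02 (−0.13, adjusted p = 0.733), as did Sgk1, a kinase gene induced through both receptors, at 3.87, 3.18 and 2.95 against 3.35, 3.02 and 3.41 (0.07, adjusted p = 0.896). Klf15, a metabolic transcription factor, read 2.49, 2.62 and 1.35 against 2.66, 3.26 and 2.94, with knockout replicate 3 lowest (−0.80, SE 0.291, adjusted p = 0.23). None of 22 mineralocorticoid receptor and sodium handling genes was called (median −0.01), nor any of 18 clock genes (median −0.21). Ccn2 and Edn1 of the former stood at 0.26 and 0.37. Time of day of collection is not in the labels, and its part in these values was not tested.

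Transcription factors, matrix and immune genes gave few calls. Of 37 cardiac transcription factor genes 0 rose and 2 fell. Gata6, a zinc finger factor of heart muscle, read 2.42, 2.47 and 2.30 against 3.14, 3.26 and 3.11 (−0.77, SE 0.0974, adjusted p = 0.00278). Its call held neither with normexp nor with the mean of its probes (adjusted p = 0.0664 and 0.066). The other was Myocd. Gata4, Nkx2-5, Tbx5 and Mef2c stood at 0.22, −0.30, −0.23 and −0.51. Of 44 matrix genes none was called, with a median of −0.04. Of 36 inflammatory and interferon genes Tlr2, a receptor of innate immunity, rose by 0.50 (0.0437), a call lost in 11 of the 12 fits without 1 heart (adjusted p up to 0.147). Among 24 fibroblast and mural cell markers Acta2, smooth muscle actin, which the fetal heart also makes, read 6.76, 6.30 and 6.85 against 5.68, 5.69 and 5.80 (0.91, adjusted p = 0.0225), and its other probes gave 0.65, 0.68 and 0.71. Of 20 atrial and conduction markers Gpr22, an orphan receptor gene of the heart, read −0.88, −0.86 and −1.52 against 0.18, 0.10 and 0.12 (−1.23, SE 0.169, adjusted p = 0.00456), while the atrial light chain gene Myl4 overlapped between the groups (0.00, adjusted p = 1). The call of Acta2 was absent from 5 of the 12 fits without 1 heart (adjusted p up to 0.0843).

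Of 23 macrophage markers 1 was below 0 and none was called. The median was 0.22, and the mean level was 1.07, 1.13 and 1.27 in knockout hearts against 0.91, 0.89 and 0.98 in dflox hearts. Endothelial markers had a mean of 2.11, 2.09 and 2.11 against 2.19, 2.27 and 2.10, which overlap. The 6 red cell markers were all above 0 (median 0.66), and the mean of the 5 with all values was 1.78, 1.59 and 1.00 against 0.18, 1.49 and 1.02, with dflox replicate 1 lowest. Airway and lung markers had 16 of 21 members above 0 (median 0.99), but replicates of each genotype differed by more than 4 log2 units in the list's mean, and none was called. Scgb1a1, the secretoglobin of airway club cells, read 5.09, −1.34 and 5.09 in knockout hearts against 1.38, −1.13 and 5.63, while the surfactant gene Sftpc of the alveoli was well above background on 1 array of each group. With the airway and lung level as a term in the model 351 genes were called, 329 of them among the 422, and all 422 kept their direction. The part of these markers in single gene results was not tested further.

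**Figure D4:**
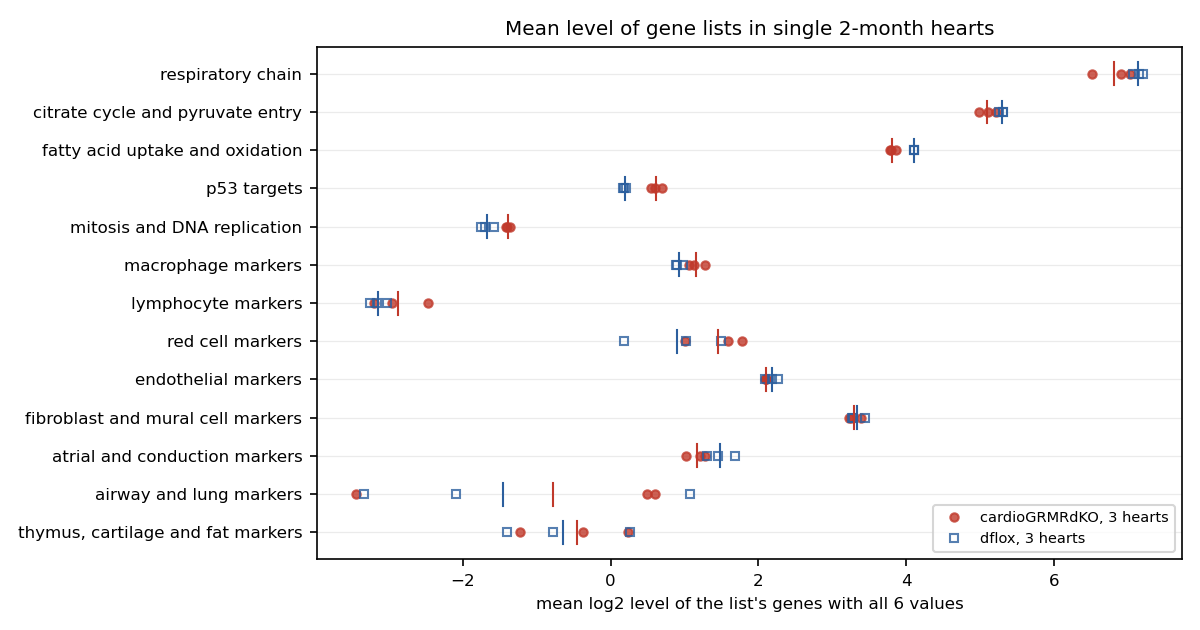
Mean log2 level (x axis) of the genes of a list with values in all 6 hearts, for metabolic, p53, cell cycle and cell type marker lists. Filled circles are the 3 knockout hearts, open squares the 3 dflox hearts and vertical bars group means. The p53, mitosis and macrophage lists lie higher in all knockout hearts. The fatty acid, respiratory chain, citrate cycle and atrial lists lie lower in all of them, some by a narrow margin. The airway and lung markers spread by several log2 units within both groups.

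The changes at 2 months were mostly larger than at 1 month, but no gene passed the test of the difference. At 1 month limma called 179 genes (0.98%). Of the 201 rises at 2 months 178 were larger in size than at 1 month, and of the 221 falls 184. Calls at 2 months favour genes whose differences came out large at that age, so some shrinkage at the other age is built into these counts. They include 16 rises and 4 falls with no array of the dimmer group well above background, whose size is not measured. Among the 20 largest rises 11 were also called at 1 month, and among the 19 falls 16. The sign was the same at 1 month in 19 of these rises and 18 of these falls. Myh7 was among the genes that differed by more at 1 month, 3.61 against 2.76, as did Sds, −3.56 against −3.11. Casq1, Gdf15, Kcnv2 and Cngb3 differed by more at 2 months, at 3.45, 3.05, −3.69 and −3.65 against 2.17, 1.87, −2.38 and −2.48. Xlr3c stood at 2.68 at 2 months and at −0.54 at 1 month, where it was not called (adjusted p = 0.945). The difference between the genotype effects called 0 of 18258 genes (0%), with 643 genes at an unadjusted p under 0.05 and a smallest adjusted p of 0.934, but it called 136 genes once the slide 3 arrays were removed, a setting with 1 dflox heart of 2 months. Slc40a1, the iron exporter gene ferroportin, was among the 6 named by smallest p in that comparison, at 0.47, 0.46 and 0.43 in the knockout group against 1.44, 1.45 and 1.46 (2.00-fold lower at 2 months, adjusted p = 8.45e-04), against a difference of −0.24 at 1 month. Lrrcc1, a centrosome gene, stood at 1.64 against 0.61, with its other probes at 1.69 and −0.21 and its call lost with normexp (0.68, 0.0893) at 2 months, and Cuedc1 at −1.74 against 1.37, the former called at 2 months (3.87e-04) and the latter not (0.0543).

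**Figure D5:**
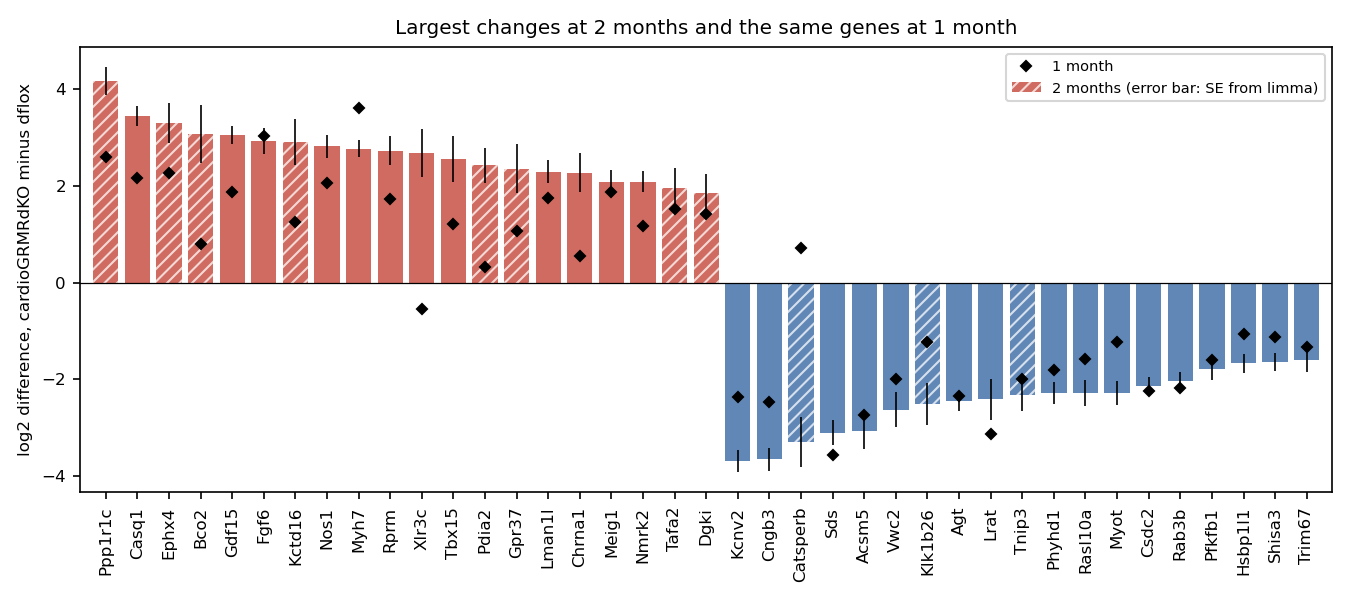
Log2 difference between knockout and dflox hearts (y axis) of the largest called changes at 2 months, as bars with the SE from limma, and of the same genes at 1 month, as diamonds. Hatched bars are genes not well above background on any array of the dimmer group, whose bar is no bound. Most diamonds lie nearer 0 than the bar, and that of Xlr3c lies on the other side of 0.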

How the data were processed

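Total RNA of each heart was column-purified with DNase and 500 ng were labelled with Cy3, per the labels' protocols. The deposited values are intensity values, background-subtracted by Agilent Feature Extraction 9.5.3.1 per the file headers, and the deposited value table equals them. Probe positions are those of mm7 in the file headers. Control spots and outlier flags were left out, and log2 intensities were centred on each array's 75th percentile. A probe was kept if at least 1 group had it well above background on each of its 3 arrays (26984 probes, 18258 genes), and the brightest stands for its gene. Symbols were updated through RefSeq accessions for 22951 of 41174 probes, and 8440 kept the file's name. Group means of all 12 arrays were fitted with limma 3.58.1 in R 4.3.3 (two-sided, Benjamini-Hochberg over all genes, called at adjusted p under 0.05). The procedure was tested on simulated data.

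Named are the receptors, the 20 largest rises and falls among called genes with a symbol and groups that do not overlap, up to 8 called members of each list by smallest p, the 6 smallest p values for the difference between ages, and a few genes always shown. The comparison, lists and rules were chosen with earlier results of these data known. Some genes that meet the rule are not reported here. Alternatives were quantile normalization, normexp (offset 50), other probe filters, the mean of probes, slide, place or replicate number as a term, array weights, the 2-month arrays alone, and leaving out slide 3 or 1 heart. Slide and scan group coincide. The labels count mice, so hearts are separate animals, and 3 per group limit the precision. Which exon or UTR a probe reads was not analysed here.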

Additional observations from a re-analysis of the deposited data

How the results depend on the processing

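The 422 genes called at 2 months stayed within 1.5 times that number with quantile normalization, with probes above background on all 12 arrays, with the mean of probes, with slide, place or replicate number as a term, with array weights and with the airway and lung level as a term, which was chosen after seeing the data. It was 108 with the 2-month arrays alone, 247 with normexp, 243 with no filter on dim probes, 110 without the arrays of slide 3 and 187 where a change of 2-fold was also asked for. Without 1 heart it ranged from 240 to 389. The cause of these shifts was not tested. With normexp 35.6% of the called genes were higher, against 47.6% in the main setting. The difference between ages called 0 genes, except for 1 with the place on the slide as a term and 136 without the arrays of slide 3, and without 1 heart it called 0 to 0. The deviations of same-numbered knockout and dflox hearts correlated across genes at −0.03, 0.55 and 0.03, and those of differently numbered hearts at −0.48 to 0.38. The pair at 0.55, replicates 2, shared slide 3. These few values do not decide whether replicate numbers pair the hearts. The replicate block called 326.

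Of 87 named called genes 85 kept their sign in all 25 alternatives, the exceptions being Pdia2 (−0.053) and Gpr37 (−0.11) with normexp. With normexp the calls of Cacna2d1, Cacnb1, Ddit4l, Aldh1l2, Hsph1, Got1, Asl, Ppp1r1b and Tlr2 did not hold, beside those named with their genes. The call held in every alternative for 15 and in all 12 fits without 1 heart for 51. Cuedc1 gained a call in 5 alternatives. Dim probes limit precision, since a gene below background has only a bound.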

Other observations

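The genes named here were single called genes chosen after their values were seen, so they stand for no gene family or pathway. Whether their calls hold in the other settings, with other probes or without 1 heart was not followed gene by gene. Of the 16 nerve and glia markers tested, 1 was called. Whrn, the scaffold protein whirlin of hair cells and photoreceptors, read 1.66, 1.66 and 1.52 in knockout hearts and 3.05, 3.35 and 3.04 in dflox hearts (−1.53, adjusted p = 8.93e-04 with limma), and Abca4, a retinoid transporter gene of photoreceptors, was lower by 1.38 on the log2 scale (0.0026). Gnb3 and Gng13, G protein subunit genes of sensory cells, were higher, by 1.16 and 1.44 (0.0026 and 0.0256). Syn2, a synaptic vesicle gene, read 0.90, 0.87 and 0.77 against −1.16, −1.16 and −0.46 (1.78, 0.00494). The NMDA receptor subunit genes Grin2c and Grin3b were higher by 1.33 and 0.97 (0.0056 and 0.0437), and Arc, an activity-induced gene, by 1.43 (0.0154), while Homer1, a postsynaptic scaffold gene that muscle also makes, was lower (−0.92, 0.019). In none of these genes did the groups overlap, which also held for 419 of the 422 called genes and for 17.3% of all tested genes.

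Pnmt, which makes adrenaline from noradrenaline, read −3.58, −3.90 and −3.71 against −2.43, −2.60 and −2.16 (−1.33, adjusted p = 0.00145 with limma). Of genes that encode glutathione transferases, Gstm3, Gstm7, Gstk1 and Mgst3 were called lower, at −0.57, −0.67, −0.89 and −0.62 (0.0243, 0.0441, 0.0382 and 0.0194), and how many others of that family changed was not counted. Alas1, the first enzyme of haem synthesis, and Flvcr2, a transporter gene, stood at −0.59 and −0.58 (0.0344 and 0.0422). Beyond the cell cycle list, the kinetochore genes Spc25 and Cenpk rose by 1.72 and 1.23 (0.00736 and 0.0178) and the centromere gene Oip5 by 1.26 (0.00252). Gmnn, the inhibitor of replication licensing, was lower at −0.87 (0.0349).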
